A study of Rattus norvegicus with 6 samples.

Results

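Retinoid genes are the 9 genes Stra6, Rbp4, Crabp2, Rdh10, Aldh1a1, Aldh1a2, Cyp1b1, Rarb and Cyp26b1, which cover the uptake of vitamin A, its conversion to retinoic acid, and the response to that acid and its breakdown. Every probe set carrying 1 of these symbols in the platform annotation was taken, which gave 15 probe sets of 31042 on the array without controls and 9 genes of 14217 with a symbol. The genes were chosen by role with the measured differences between the groups already known, above all those of Aldh1a2 and Stra6, so the differences of the 9 genes are given below as descriptions without a test. Astrocytes of the rat spinal cord were grown in primary culture, and their RNA was measured on Rat Genome 230 2.0 arrays of Affymetrix. One group, hSOD1G93A, came from rats carrying a human SOD1 transgene with a mutation that causes familial amyotrophic lateral sclerosis, and the other, NonTG, carried no transgene. Each group has 3 arrays, lettered A, B and C. Both groups were grown to confluence, kept 24 hours in the same supplemented medium, and gave 5 ug of total RNA per array. The labels used here do not say how many animals or cultures stand behind an array, their age, or which promoter drives the transgene, so the spread behind each p-value is that of these arrays and may be technical.

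Retinol travels in blood bound to Rbp4 and enters some cells through the membrane receptor Stra6. Rdh10 oxidises retinol to retinaldehyde, the Aldh1a enzymes oxidise retinaldehyde to retinoic acid, and Crabp2 carries the acid to nuclear receptors such as Rarb. These receptors pair with retinoid X receptors on DNA and raise the transcription of target genes, among them Rarb itself and the Cyp26 enzymes that break retinoic acid down. In the central nervous system Aldh1a2 is best known from the meninges and from motor neurons of the developing spinal cord.

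The DNA element of that response is 2 half-sites in the same orientation with 5 bases between them, known as DR5. RefSeq promoter windows (GRCr8, from 250 bases before to 50 bases after the annotated start) were matched for 8 of the 9 genes, Rdh10 having no entry, and were searched on both strands for GGTCANNNNNNGGTCA, GGTCANNNNNNGTTCA, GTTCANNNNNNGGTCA and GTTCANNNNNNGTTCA. Of all 33469 windows, 201 (0.601%) held a match. Of the 9 genes Rarb alone did, and of the 66 windows found for retinoid genes and aryl hydrocarbon receptor genes together the other was that of Cyp26a1, a further enzyme of retinoic acid breakdown. The same half-sites with 2 or 1 bases between them occurred in 0.326% and 0.379% of all windows and in none of the 66. Both DR5 matches are shown because Rarb and Cyp26a1 serve below as readouts of the response; capitals mark the half-sites of 6 bases, and each run covers 30 bases read 5′ to 3′ on the strand that carries the element.
Rarb element, chr15:11336410-11336439, plus strand: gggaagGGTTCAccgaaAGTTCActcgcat
Cyp26a1 element, chr1:244883723-244883752, minus strand: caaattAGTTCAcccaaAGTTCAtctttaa
The Rarb element spans bases 25 to 41 after the annotated start. That of Cyp26a1 lies 92 to 76 bases before it. A match describes letters in a window and is not a measured binding site.

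Signals are MAS5 intensities on a linear scale, and differences are hSOD1G93A minus NonTG on the log2 scale. A probe set was taken as dim, and left out of the test across the array, when its mean log2 signal did not exceed the 40th percentile, which was 66.7 as a signal. Of the 15 probe sets of the retinoid genes 10 passed this filter, at least 1 for each gene, and all 15 are described. The limma test over the 18625 probe sets that passed called none at an adjusted p of 0.05 (percent called 0.0), with 474 (2.54%) at an unadjusted p of 0.05. With the letter as a block these counts were 0 (0.0%) and 1090 (5.85%). With 3 arrays a group the precision is limited, and standard errors (SE) had a median of 0.16.

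When each gene was read by its brightest probe set, Aldh1a2 stood apart from the other genes of the pathway. On that reading 7 of the 9 genes were on the higher side and 2 on the lower side. The median difference was 0.073, against 0.007 over all tested probe sets, and 7 of the 9 had a difference smaller than 0.25 in size. Of the 7 on the higher side 6 (Stra6, Rbp4, Crabp2, Rdh10, Rarb and Cyp26b1) turned to the lower side when some 1 array was left out, and Aldh1a2 did not. The exceptions to the small differences were Aldh1a2, which was 2.21-fold higher in hSOD1G93A, and Cyp1b1, which was 1.3-fold lower. A large Stra6 difference was seen in some of its probe sets and not in its brightest. The groups did not overlap for 3 of the 15 probe sets, 1 each of Aldh1a2, Stra6 and Cyp1b1. Over all 31042 probe sets the share without overlap was 8.09%, and 7.51% over those tested; the genes were chosen with these differences known, so nothing is read from that count.

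**Figure D1:**
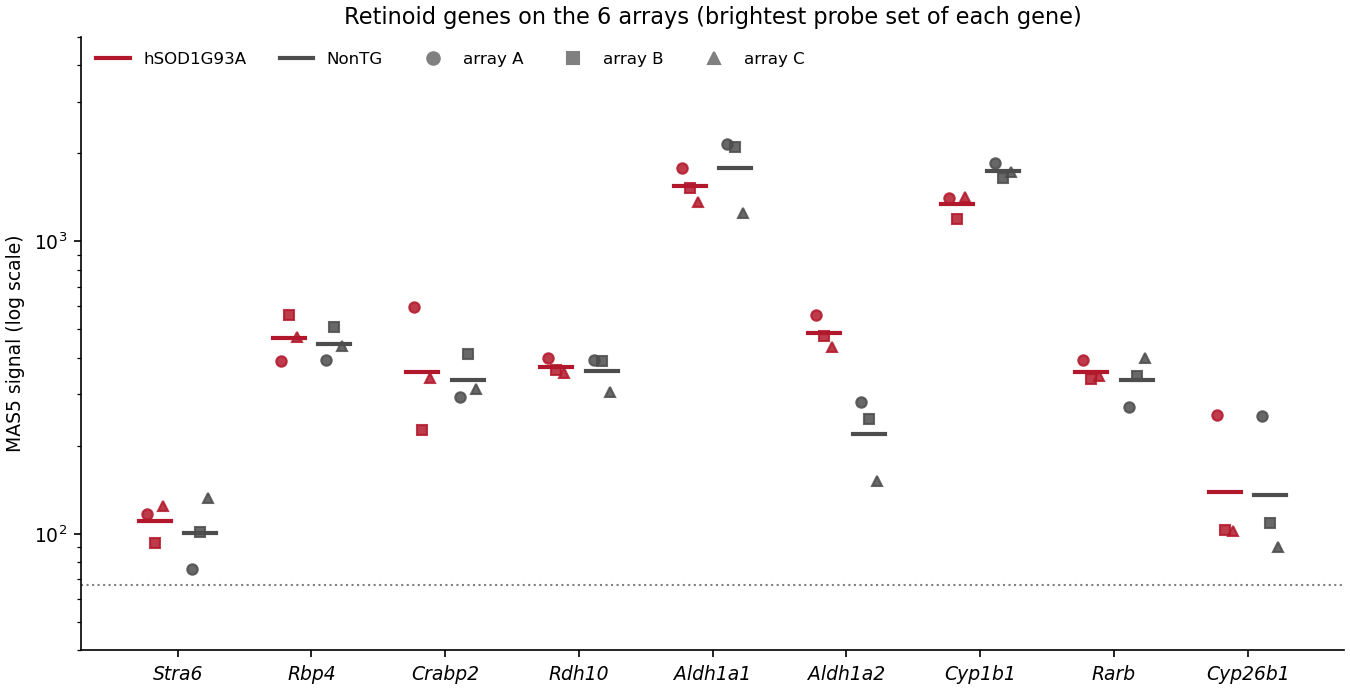
MAS5 signal (log axis) of the 9 retinoid genes on each of the 6 arrays, by the brightest probe set of each gene, with hSOD1G93A in red left of NonTG in grey. Bars are group means of the log2 signals, marker shapes are the replicate letters, and the dotted line is the dim level of 66.7. Aldh1a2 is higher and Cyp1b1 lower on all 3 hSOD1G93A arrays than on any NonTG array, and the other 7 genes overlap.

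The genes of uptake were Stra6 and Rbp4, of which only the RNA was measured. Stra6, the membrane receptor that takes up retinol from its carrier, was read by 5 probe sets, all of them weak, and 2 passed the filter. The brightest (1376962_at) had signals of 117, 93.1 and 124 on the hSOD1G93A arrays A, B and C, against 76, 101 and 132 on the NonTG arrays. The groups overlapped, and the difference was 0.14 (SE 0.31, 95% interval -0.55 to 0.83). The second (1385476_x_at) had 117, 129 and 95.3 in hSOD1G93A, against 32.7, 61.4 and 56.4 in NonTG, without overlap. Its difference was 1.22 (SE 0.38, 95% interval 0.37 to 2.08), which ranked 21st in size among the 18625 tested probe sets. This probe set passed the filter only through its hSOD1G93A signals, and Stra6 was chosen with its differences known, so the rank is no support. All 3 of its NonTG signals lay under the dim level, so the size is uncertain: it was 0.99 with a pseudocount of 16 and 0.64 with one of 64. The suffix x_at marks a probe set whose probes can also match other transcripts.

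The 3 remaining Stra6 probe sets were dimmer. The probe set 1385475_a_at had 149, 64.2 and 88.1 in hSOD1G93A, against 122, 18.1 and 30.4 in NonTG, a difference of 1.22 (SE 0.68) in which the NonTG A array reached the hSOD1G93A range. On 1390525_a_at the signals were 97.6, 45.2 and 62.4 in hSOD1G93A, against 48.3, 24.3 and 1.89 in NonTG. The last NonTG value is close to the bottom of the scale and carries much of the difference of 2.32 (SE 1.1), which was 0.92 without that array. By contrast, 1381606_at had 76.4, 31.8 and 59 in hSOD1G93A, against 76.8, 42.4 and 50.8 in NonTG, a difference of -0.07 (SE 0.49). Of the 5 probe sets 3 were thus higher in hSOD1G93A within every letter and 2 were not. Only 1385476_x_at of the 3 passed the filter, and Stra6 was chosen with its differences known, so the count is no support. Probe sets designed on the same sequence record stood on both sides of that split: 1390525_a_at shares its record with the brightest one, for which the letters A, B and C gave 0.62, -0.11 and -0.09. Whether the transcripts they read differ was not tested.

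**Figure D2:**
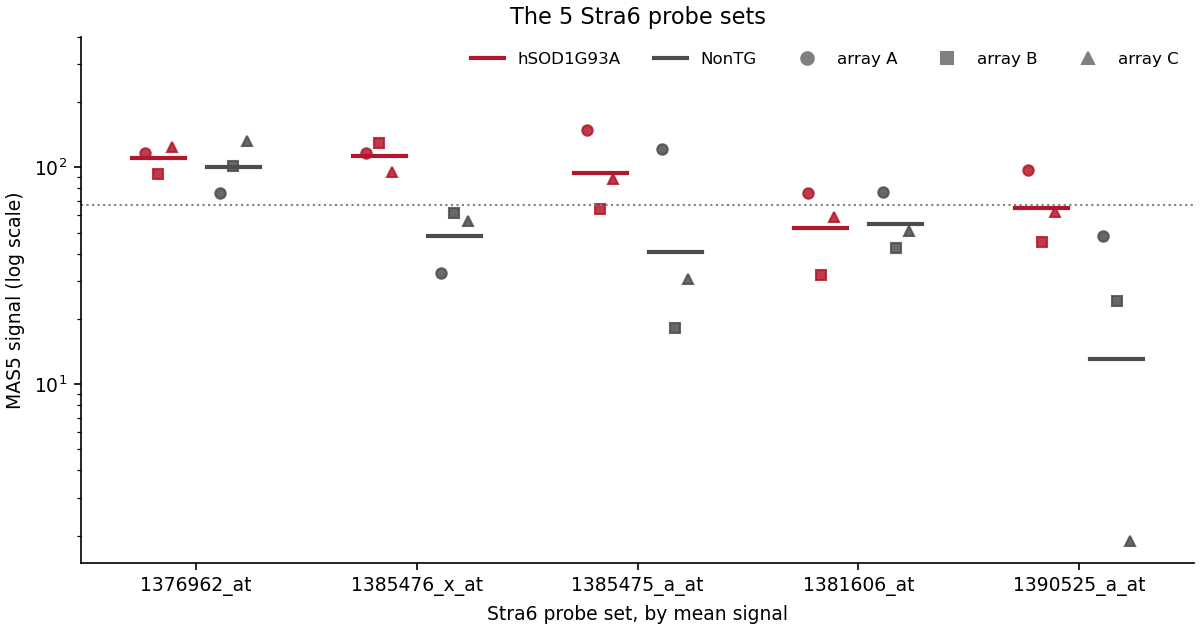
MAS5 signal (log axis) of the 5 Stra6 probe sets on each array, ordered by mean signal, with hSOD1G93A in red left of NonTG in grey, bars at the group means of the log2 signals and the dim level of 66.7 as a dotted line. The groups are apart on 1385476_x_at, where all NonTG signals lie under the dotted line, and overlap on the brightest probe set.

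Rbp4, the carrier of retinol in blood, had 390, 558 and 469 in hSOD1G93A, against 393, 508 and 439 in NonTG. The groups covered nearly the same range, and the difference was 0.07 (SE 0.16, 95% interval -0.28 to 0.43). Crabp2, which delivers retinoic acid to its receptors in the nucleus, had 595, 226 and 340 in hSOD1G93A, against 293, 410 and 312 in NonTG. The highest and the lowest of the 6 values were both hSOD1G93A arrays, A and B, and the difference was 0.10 (SE 0.30, 95% interval -0.58 to 0.77). Arrays of the same letter gave Crabp2 differences of 1.02 (A), -0.86 (B) and 0.13 (C).

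Rdh10, the gene of the step from retinol to retinaldehyde, had 398, 364 and 355 in hSOD1G93A, against 392, 389 and 304 in NonTG (1384391_at). These signals differed by 0.05 (SE 0.15, 95% interval -0.28 to 0.38). A second Rdh10 probe set (1390079_at) lay under the dim level on all 6 arrays, between 8.89 and 48.5 in hSOD1G93A and between 14.4 and 52.1 in NonTG, and gives no usable difference.

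Aldh1a2, also called RALDH2, is the retinaldehyde dehydrogenase that makes most retinoic acid in the embryo. Its probe set (1368003_at) had signals of 559, 474 and 435 in hSOD1G93A, against 282, 247 and 152 in NonTG. The lowest hSOD1G93A array was above the highest NonTG array, and no signal was under the dim level. The mean log2 signals were 8.93 ± 0.18 in hSOD1G93A and 7.78 ± 0.47 in NonTG (SD, n = 3 each), a difference of 1.15 (SE 0.23, 95% interval 0.64 to 1.65). Arrays of the same letter differed by 0.99 (A), 0.94 (B) and 1.51 (C). It stayed between 0.88 and 1.33 when any 1 array was left out, and ranked 34th in size among the 18625 tested probe sets.

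Aldh1a1, a second retinaldehyde dehydrogenase with a wider range of substrates, did not share this pattern. Its signals were 1783, 1525 and 1361 in hSOD1G93A, against 2147, 2104 and 1244 in NonTG. The NonTG arrays A and B were the highest of the 6 and NonTG C was the lowest, so the groups overlapped. The difference was -0.20 (SE 0.19, 95% interval -0.63 to 0.23), and Aldh1a1 lay at the 90.1st percentile of mean log2 signal on the array, against the 65.2nd for Aldh1a2. Signals of different probe sets are not amounts, and these percentiles do not say which enzyme was more abundant.

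Cyp1b1, a cytochrome P450 that oxidises steroids and can also oxidise retinol, had 1410, 1192 and 1421 in hSOD1G93A, against 1853, 1644 and 1730 in NonTG. All hSOD1G93A arrays lay below all NonTG arrays, and the difference was -0.38 (SE 0.098, 95% interval -0.60 to -0.16). It was negative within each letter, at -0.39, -0.46 and -0.28, and ranked 1296th in size among the tested probe sets. Cyp1b1 is a classical target of the aryl hydrocarbon receptor, and 10 genes of that receptor, its partner and its other targets were listed. Of the 9 on the array 5 were measured, 1 higher and 4 lower, with 0 past limma's adjusted threshold (0.0% of all probe sets) and 0 at an unadjusted p of 0.05 (2.64% of all genes). Arnt, the partner of the receptor, differed by -0.28 (SE 0.24), Nfe2l2, a transcription factor of antioxidant genes, by -0.08 (SE 0.094), and Tiparp, a feedback inhibitor of the receptor, by 0.05 (SE 0.092). Cyp1a1, the most inducible target, was under the dim level on all 6 arrays.

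Rarb, a retinoic acid receptor whose own promoter carries the DR5 element shown above, served as a readout of the response. It had 392, 339 and 347 in hSOD1G93A, against 272, 345 and 398 in NonTG. The hSOD1G93A values lay inside the NonTG range, and the difference was 0.10 (SE 0.17, 95% interval -0.27 to 0.47). The interval lies within 2-fold in both directions. Cyp26a1, the other gene with the element, was under the dim level in mean signal, with 7.36, 47.1 and 76.9 in hSOD1G93A, against 62.6, 76.3 and 60.8 in NonTG, and was not tested. No element was found in the windows of Aldh1a2 or Stra6, which says only that these letters are not there.

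Cyp26b1, the enzyme of retinoic acid breakdown that was measured, had nearly the same signals in both groups once arrays of the same letter were set side by side. The signals were 255, 103 and 102 in hSOD1G93A, against 252, 109 and 90.2 in NonTG (1384392_at). In both groups array A was far above B and C, by 1.32 in hSOD1G93A and by 1.34 in NonTG on the log2 scale. The difference between groups was 0.03 (SE 0.46, an error that contains the spread between letters), and within the letters it was 0.02, -0.09 and 0.17. The other Cyp26b1 probe set (1376667_at) was under the dim level on all arrays, with 34.2, 15.9 and 42.2 in hSOD1G93A, against 35.2, 22.3 and 10.6 in NonTG.

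Letters were tested in the limma model that holds letter and group, a test chosen after the data had been seen and independent of the difference by which the genes were picked. An F test of the letters called 195 of 18625 probe sets at an adjusted p of 0.05 (1.05%) and 2897 at an unadjusted p of 0.05 (15.6%). Of the 10 tested retinoid probe sets 0 passed the adjusted threshold and 4 had an unadjusted p under 0.05, those of Cyp26b1, Aldh1a1, Aldh1a2 and Rbp4. The adjusted p of limma's F test was 0.0536 for Cyp26b1, 0.126 for Aldh1a1, 0.259 for Aldh1a2 and 0.288 for Rbp4. Aldh1a2 and Aldh1a1 were highest on array A and lowest on array C in both groups, and Rbp4 was lowest on array A in both. Of the 37 other measured retinoid genes 2 passed the adjusted threshold for letters, Nr2f2, an orphan nuclear receptor (adjusted p of limma's F test = 0.0166), and Lamb1, a laminin chain (0.0199). Nr2f2 had 3788, 2324 and 2765 in hSOD1G93A, against 3716, 2426 and 2827 in NonTG, with array A highest in both groups as for Cyp26b1. The labels do not say what the letters stand for.

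**Figure D3:**
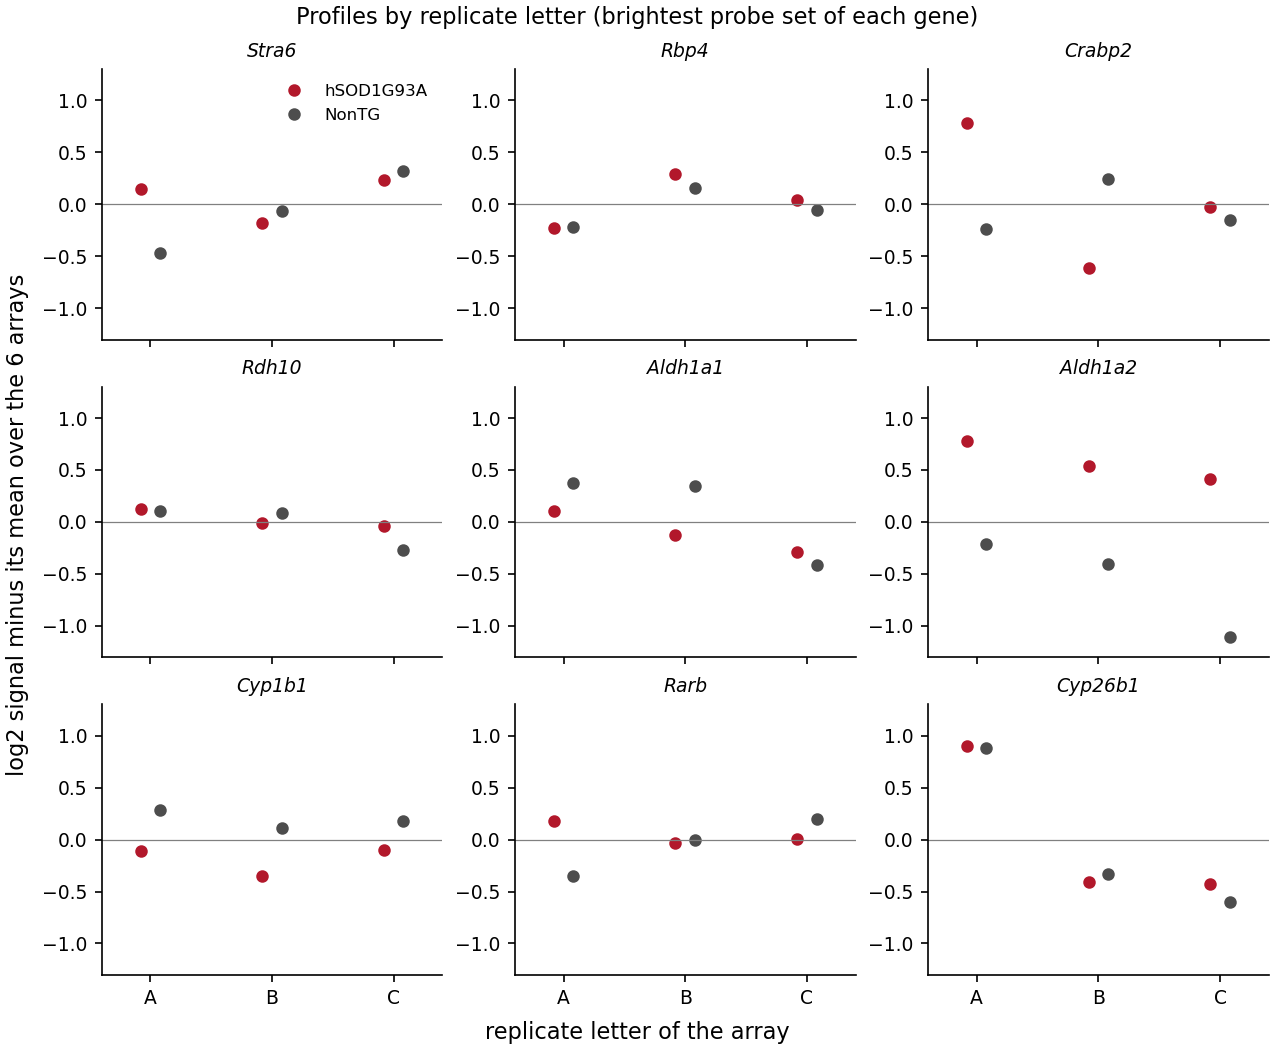
Log2 signal of the 9 retinoid genes minus its mean over the 6 arrays, by replicate letter, with hSOD1G93A in red left of NonTG in grey (brightest probe set of each gene). For Cyp26b1 the points of both groups coincide letter by letter with A highest, while for Aldh1a2 the hSOD1G93A point is above the NonTG point by 0.94 to 1.51 under every letter.

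The other genes of retinoid handling and response were taken from lists of known roles. Of 72 such genes 60 were on the array and 37 were above the dim level. Among the 37, 17 were on the higher side and 20 on the lower, with a median difference of -0.014 against 0.003 over 10473 genes. None was called by limma at an adjusted p of 0.05 (0.0% called among all probe sets), in the main fit or with the letter as a block, and 1 had an unadjusted p under 0.05, as 2.64% of all genes did. That count was 4 with the letter as a fixed block, against 5.85% of all probe sets in that fit. It was 3 without the hSOD1G93A A array, 2 without NonTG B and 0 without hSOD1G93A C. Over all tested probe sets those 3 fits gave 1183, 427 and 352, against 474 in the main fit. No difference exceeded 0.5 in size, and for 36 of the 37 the 95% interval lay within 2-fold in both directions. The groups did not overlap for 2 of the 37, Rxrb and Rarg, both lower in hSOD1G93A, as they did not for 7.52% of all genes.

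Transport and storage genes gave 5 measured genes of 12 on the array, 3 higher and 2 lower. Lpl, the lipoprotein lipase, differed by 0.13 (SE 0.21), Fabp5, a binding protein that carries retinoic acid to another class of receptors, by -0.06 (SE 0.089), and Scarb1, a lipoprotein and carotenoid receptor, by 0.06 (SE 0.14). Genes converting retinol and retinaldehyde gave 7 measured of 17, 5 higher and 2 lower. Rdh14, a retinol dehydrogenase, differed by 0.25 (SE 0.13), Dhrs7, a related reductase, by 0.13 (SE 0.093), and Dhrs3, which reduces retinaldehyde back to retinol and is induced by retinoic acid, by 0.11 (SE 0.13). Limma's adjusted p was 0.9997 for each. The Dhrs3 signals were 1383, 1189 and 1265 in hSOD1G93A, against 963, 1289 and 1332 in NonTG, with overlap. Of the remaining genes of retinoic acid synthesis and breakdown, Aldh1a3, Cyp26a1 and Cyp2s1 were on the array and none was above the dim level.

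Receptors and their coregulators gave 10 measured genes of 12, 3 higher and 7 lower. Nr2f1, an orphan receptor that can occupy retinoid response elements, had 754, 920 and 1041 in hSOD1G93A, against 704, 638 and 810 in NonTG, and differed by 0.33 (SE 0.14). It was the 1 gene with an unadjusted p under 0.05, and its groups overlapped. Rxrb, a retinoid X receptor, had 168, 150 and 179 in hSOD1G93A, against 213, 192 and 212 in NonTG, a difference of -0.31 (SE 0.17). Rarg, another retinoic acid receptor, differed by -0.27 (SE 0.18) and the coactivator Ncoa1 by 0.20 (SE 0.12). The adjusted p of limma was 0.9997 for these 4 genes.

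Genes known to respond to retinoic acid gave 17 measured of 20, 7 higher and 10 lower, with a median difference of -0.032. Gprc5b and Gprc5c, receptors of the retinoic acid-inducible family, differed by 0.30 (SE 0.20) and -0.32 (SE 0.21). Rarres2, the retinoid-responsive gene for the secreted protein chemerin, had 406, 505 and 483 in hSOD1G93A, against 469, 732 and 522 in NonTG, a difference of -0.29 (SE 0.18). Limma's adjusted p was 0.9997 for all 3, and the list held genes on either side of 0 with none past the threshold.

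**Figure D4:**
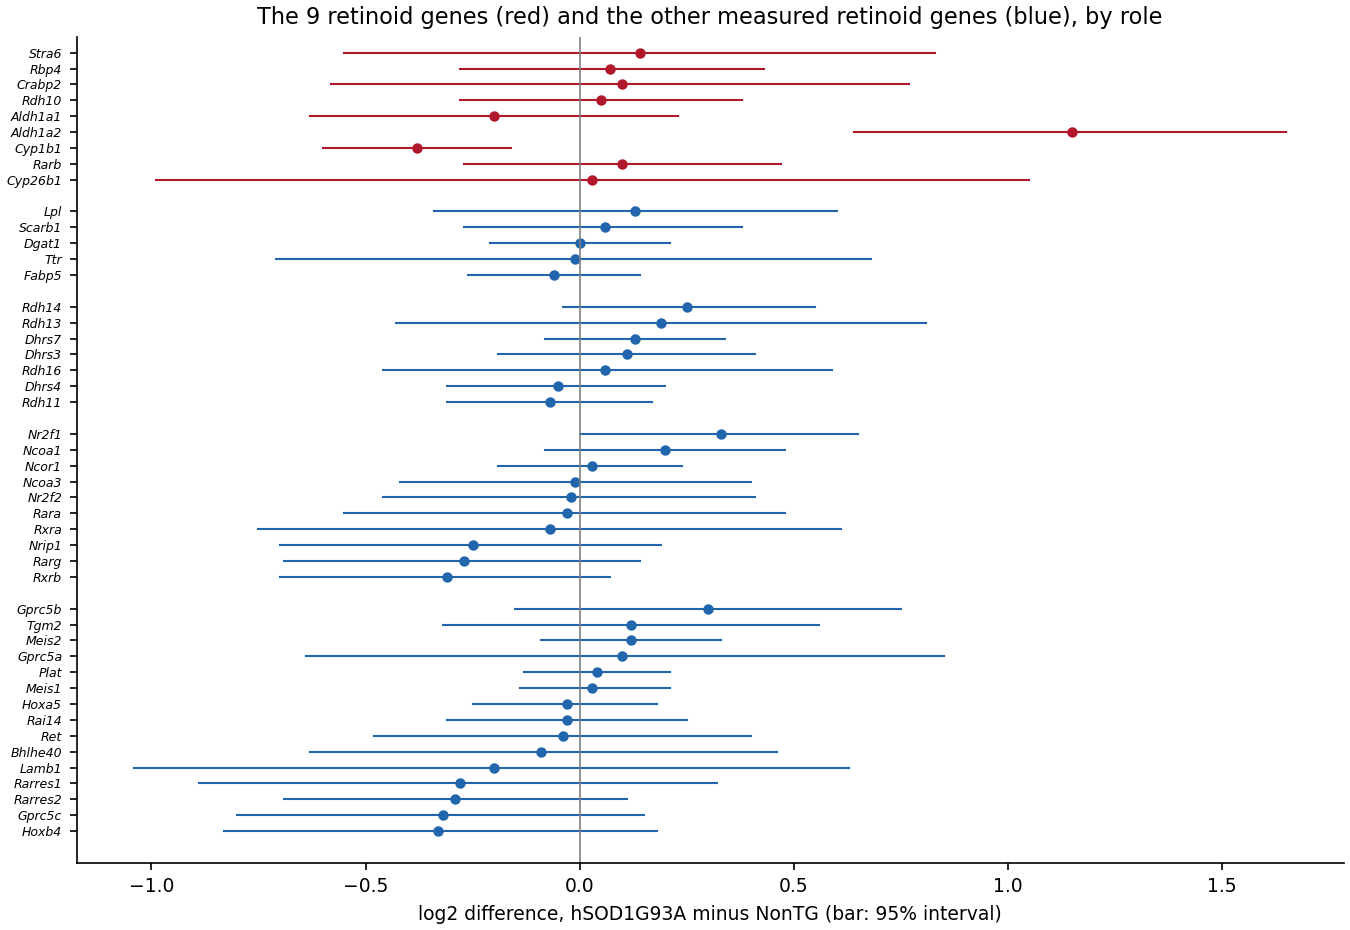
Log2 difference, hSOD1G93A minus NonTG, with its 95% interval, for the 9 retinoid genes (red) and the 37 other measured retinoid genes (blue), the blue groups being, from the top, transport and storage, retinol and retinaldehyde conversion, receptors and coregulators, and retinoic acid targets. Among the red points Aldh1a2 lies to the right at 1.15, and the blue points lie between -0.33 and 0.33.

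Profiles over the 6 arrays were compared by the root mean square difference of log2 signals, each minus its own mean, among 14632 probe sets with 1 symbol. Nearest to Aldh1a2 were Plch1, a phospholipase C (0.245), Kcna2, a potassium channel subunit (0.254), and Celsr2, a cadherin of planar cell polarity (0.268). Of the other retinoid genes Rdh10 came first, at rank 1643 (0.573), and Cyp1b1 last, at rank 13324 (0.817). The brightest Stra6 probe set stood at rank 11176 (0.723). The Stra6 probe set without overlap, looked up after its values were known, would stand at rank 462 (0.506). The group difference, known when Aldh1a2 was chosen, makes up most of its profile. These ranks by distance from Aldh1a2 therefore largely restate the differences given above and are no separate support. Nearest to the brightest Stra6 probe set were Nt5m, a mitochondrial nucleotidase (0.0481), LOC100909729 (0.051) and Cdh3, P-cadherin (0.0548). Rarb stood at rank 72 of 14631 in that order (0.136), and both had their lowest signal on the NonTG A array and their highest on NonTG C. That Stra6 probe set was weak, with signals of 76 to 132, and whether Stra6 and Rarb move together was not tested.

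Sod1, the rat gene of the enzyme encoded by the transgene, had 9781, 10860 and 10510 in hSOD1G93A, against 8982, 8855 and 9430 in NonTG, a difference of 0.19 (SE 0.069, limma's adjusted p = 0.9997). Its probes were made for rat Sod1 and so do not test for the transgene. Of 15 astrocyte markers on the array 14 were measured, 6 higher and 8 lower, with a median of -0.022 and a summed signal of 116128 to 134403 in hSOD1G93A and 122561 to 136837 in NonTG. The brightest, Fabp7, Gja1 and Aqp4 had mean log2 signals of 14.38, 14.01 and 14.04 in hSOD1G93A and 14.47, 13.96 and 13.92 in NonTG. Other markers were far dimmer. The glutamate transporter Slc1a2 (0.47, SE 0.23) and the Notch target Hes5 (-0.55, SE 0.27) were the 2 without overlap, against 7.52% of all genes. They lay at the 47.3rd and 45.1st percentiles of mean log2 signal, and the connexin Gjb6 was under the dim level on all arrays.

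Meningeal and other fibroblasts are a known source of Aldh1a2. Some of their markers were bright in both groups, and others were weak or under the dim level. In bulk cultures fewer cells of a type and less RNA per cell cannot be told apart. Of 43 such markers on the array, which hold no retinoid gene, 30 were measured, 16 higher and 14 lower, with a median difference of 0.029. Their summed signal was 135034 to 152979 in hSOD1G93A and 153040 to 163089 in NonTG. These ranges nearly meet, and the sum is set mostly by the brightest genes of the list. Its brightest genes were Igfbp2, an insulin-like growth factor binding protein (0.00, SE 0.071), the collagen Col1a2 (-0.12, SE 0.065) and the proteoglycan Fmod (-0.14, SE 0.080). Those with the smallest p were Dcn, the proteoglycan decorin, with 667, 283 and 349 in hSOD1G93A, against 59.1, 92.3 and 63.9 in NonTG (2.52, SE 0.32, limma's adjusted p = 0.4004), and the fibulins Fbln1 (0.41, SE 0.15) and Fbln2 (-0.16, SE 0.077). Limma called 0 of the 30, and 2 had an unadjusted p under 0.05, against 2.64% of all genes. The groups did not overlap for 2 higher genes, Dcn and Fbln1, and 2 lower ones, Col1a2 and Fbln2, against 7.52% of all genes. Of the 7 transporters of meningeal cells in the list, Slc6a13, Slc22a6, Slc22a8, Slc47a1, Slc13a3 and Slc13a4 were under the dim level in mean signal, Slc6a13 exceeding it on 3 arrays. The other, Slc6a20a, was above it, with 109, 122 and 131 in hSOD1G93A, against 186, 114 and 104 in NonTG. The part of these cells in the Aldh1a2 difference was not tested.

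The remaining marker lists gave no call in limma either. Pericyte and smooth muscle markers were lower for all 9 measured of 12, with a median of -0.26 and a summed signal of 17708 to 29192 in hSOD1G93A and 23775 to 29673 in NonTG; the brightest were Tagln (-0.14, SE 0.087), Myl9 (-0.30, SE 0.36) and Acta2 (-0.38, SE 0.28). Choroid plexus and ependymal markers gave 5 measured of 10, 4 higher and 1 lower, with a median of 0.235 and a summed signal of 4071 to 4561 in hSOD1G93A and 4434 to 4997 in NonTG. Among them Aqp1, a water channel, differed by -0.76 (SE 0.26), Foxj1, a factor of ciliated cells, by 0.16 (SE 0.20) and Folr1, a folate receptor, by 0.42 (SE 0.22). Oligodendrocyte markers gave 5 measured of 9, 4 higher and 1 lower, with a median of 0.628 and a summed signal of 5344 to 7298 in hSOD1G93A and 4950 to 5458 in NonTG. The brightest were Cnp at -0.18 (SE 0.10), Olig1 at 0.13 (SE 0.15) and the myelin gene Mbp at 0.78 (SE 0.46). The groups did not overlap for Mag, a myelin glycoprotein, with 129, 197 and 123 in hSOD1G93A, against 111, 96.8 and 78.1 in NonTG, and for Ugt8, an enzyme of myelin lipid synthesis, with 104, 115 and 110 in hSOD1G93A, against 82.9, 58.3 and 62.2 in NonTG. Their differences of 0.63 (SE 0.27) and 0.72 (SE 0.27) had an unadjusted p under 0.05 and an adjusted p of 0.9997 in limma. Over all genes the groups did not overlap for 7.52%, and 2.64% had an unadjusted p under 0.05. Other lists of this paragraph held such genes too. Aqp1 and the smooth muscle marker Lmod1, both lower, and Slco1a4, higher, had an unadjusted p under 0.05 in limma. Map2, higher, had groups without overlap. Ugt8 lay under the dim level on the NonTG arrays B and C. Endothelial markers gave 4 measured of 9, 2 in each direction, with a median of 0.32 and a summed signal of 1295 to 2253 in hSOD1G93A and 1152 to 1315 in NonTG, the brightest being Slco1a4 at 0.64 (SE 0.26), Kdr at 0.65 (SE 0.41) and Esam at -0.68 (SE 0.77). Neuron markers gave 9 measured of 13, 5 higher and 4 lower, with a median of 0.114 and a summed signal of 6891 to 7969 in hSOD1G93A and 6446 to 7603 in NonTG, led in brightness by Gad1 at -0.03 (SE 0.14), Stmn2 at 0.19 (SE 0.10) and Map2 at 0.12 (SE 0.088). Microglia markers gave 3 measured of 13, Laptm5, Fcer1g and Lyz2, with signals of 47.7 to 161 in hSOD1G93A and 53.4 to 157 in NonTG. Their part in the differences of the retinoid genes was not tested.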

How the data were processed

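RNA samples of cultured rat spinal cord astrocytes, 3 hSOD1G93A and 3 NonTG, were hybridised to 1 array each. The deposited table gives 1 linear intensity per probe set and array; the submitters' processing notes name MAS5 and GCOS 1.4. GC-RMA and log values, which the design text mentions, were not found in it: signals were linear, with a mean of 500.16 to 500.17 on each array once 2% was trimmed at either end, as scaling to a common target gives. After 57 control probe sets were left out of 31099, 20826 probe sets had 1 symbol in the platform annotation, 436 several and 9780 none; 20758 were matched to the current RefSeq gene table.

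The log2 of each deposited value was taken without a pseudocount. Groups were compared in limma 3.58.1 under R 4.3.3 by a two-sided test with trended eBayes and Benjamini-Hochberg adjustment over the 18625 probe sets above the 40th percentile. Intervals for the retinoid genes came from the same fit without that filter. A gene of a list was read by its brightest measured probe set. The fit was tested on simulated data. A permutation test of 3 arrays against 3 cannot go below p = 0.1.

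Letters occur in both groups, and deviations from the group means correlated at 0.297 for A, 0.254 for B and 0.199 for C between same-letter arrays, against -0.277 to 0.025 between different letters. Deviations cancel out within a group, so the negative values follow in part from the positive ones. By the same-letter values, letters may pair the arrays. The main fit holds no letter term, so printed standard errors, intervals and p-values are unpaired unless a block or letter is named; fits with the letter as a block are alternatives. The retinoid genes, the lists and the tests were chosen with earlier results of these data known. The genes named were all probe sets of the 9 genes, Sod1, the 3 genes with the smallest p in each other retinoid or receptor list, the 3 brightest of each marker list, the 3 with the smallest p among fibroblast markers, and the 3 nearest profiles. Genes with a DR5 element, those passing the letter test, Rarg, Cyp1a1, Aldh1a3 and Cyp2s1 were named after their values were seen. So were Slc1a2, Hes5, Gjb6, Mag, Ugt8, Lmod1 and the meningeal transporters. Alternatives were other filters, pseudocounts, normalization, weights, blocks, probe set choices and leaving out each array.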

Additional observations from a re-analysis of the deposited data

How the results depend on the processing

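The count of probe sets called over the array was 0 in the main fit and in all 15 alternatives, and so was that of other retinoid genes; at an unadjusted p of 0.05 limma gave 283 (filter at the 60th percentile) to 1183 probe sets (without hSOD1G93A A), and 0 to 4 of the other retinoid genes. With the letter as a fixed replicate block 1090 had an unadjusted p under 0.05 and the smallest adjusted p was 0.1506, and with it as a random replicate block 1005 and 0.09152. The block changed no call and left the median difference of the 9 genes at 0.073. That median was -0.015 to 0.141 when 1 array was left out, being -0.015 without NonTG A, and 0.055 to 0.096 otherwise. Aldh1a2 kept its sign, at 0.88 to 1.33 without 1 array and 0.95 to 1.15 otherwise, as did Cyp1b1, at -0.42 to -0.30 and -0.38 to -0.37. Averaging a gene's probe sets, dim ones included, moved Stra6 to 0.97, against 0.14 for its brightest, and Rdh10 to -0.30. Some differences near 0 changed sign. Without 1 array Stra6 ranged from -0.06 to 0.34, Rbp4 from -0.05 to 0.20, Crabp2 from -0.27 to 0.43, Rdh10 from -0.07 to 0.11, Rarb from -0.05 to 0.23 and Cyp26b1 from -0.41 to 0.48. Fabp5 was 0.01 after quantile normalization and Scarb1 -0.04 as the mean over its probe sets. Without 1 array Fabp5 ranged from -0.15 to 0.01, Lpl from -0.08 to 0.30, Scarb1 from -0.02 to 0.11 and Dhrs3 from -0.04 to 0.20. The causes were not tested. Weak signal limits Stra6, Cyp26a1 and the second probe sets of Rdh10 and Cyp26b1.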
